A study of Bos taurus with 52 samples.

Results

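The genes described here are 39 genes of the cell cycle and DNA replication, out of 31651 named genes counted by RNA sequencing in bovine endometrium and conceptuses. They were taken by symbol from a fixed list: 9 mitotic kinases, cyclins and checkpoint genes, 10 genes of the kinetochore, spindle and cytokinesis, 2 genes of the ubiquitin ligase at mitotic exit, 2 chromatin proteins of cycling cells, 8 genes of replication licensing and helicase, 4 of the fork clamp and nucleotide supply, and 4 G1/S cyclins and transcription factors. All 39 were present in the table. A wider list of 153 other genes of the same pathways was read beside them.

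The animals were heifers classed by fertility as high fertile (HF), sub-fertile (SF) or infertile (IF), and the labels name no other treatment or genotype. Endometrium, the lining of the uterus, came from 25 animals, 5 in each group. Those of the non-pregnant HF, SF and IF heifers are called NP-HF, NP-SF and NP-IF, and those of the pregnant HF and SF heifers P-HF and P-SF; no pregnant IF samples were analysed here. The sources used here give day 17 for the pregnant endometrium and no sampling day for non-pregnant heifers. Conceptuses, the embryo with its membranes, were collected on day 17: 10 from SF recipients, 10 from HF recipients sized as long and 7 from HF recipients sized as short. The recipients numbered 19, some with 2 conceptuses here and none with more, and p-values treat conceptuses of 1 recipient as separate samples.

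Total counts were 17.1 to 27.3 M per endometrial library and 20.5 to 47 M per conceptus library. The endometrial markers PGR, ESR1, HOXA10, HOXA11 and FOXA2 were present in all 25 endometrial libraries. HOXA10 and HOXA11 were each at 0 counts in 15 of 27 conceptus libraries and did not exceed 0.26 and 0.18 CPM (normalised read counts, scaled to library size) in the other conceptuses. PGR was at 0 in 4 conceptuses and ESR1 in 11, while FOXA2, which the endoderm of the embryo also expresses, was present in all 27 (0.64 to 3.30 CPM). The trophectoderm markers CDX2 (10.97 to 29.4 CPM) and TFAP2C (50.2 to 131 CPM) were present in every conceptus, and GATA2, a further trophectoderm marker, was higher in endometrium (median 132 CPM) than in conceptuses (58.5 CPM).

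Cyclins and their kinases drive a cell through growth, DNA synthesis and division, and most genes of the cycle are transcribed in the phase that needs them. E2F factors switch on replication genes at the entry to S phase, the MCM helicase opens the DNA at licensed origins, and FOXM1 drives the genes of mitosis. Transcripts of this kind are abundant in tissues with many dividing cells. The ruminant conceptus elongates from a sphere to a filament before it attaches, while the endometrium under progesterone is a mostly differentiated tissue. In such bulk samples fewer cells of a type and less RNA per cell cannot be told apart.

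The level of nearly every cell cycle gene was far higher in conceptuses than in the endometrium of pregnancy. The tissues differed in the RNA extraction reagent, so that the levels are set side by side with no test. In 36 of 39 genes all 27 conceptuses lay above all 10 pregnant endometria. This held for 11.9% of the 14996 genes that passed a filter on low counts in both tissues. FOXM1, among the 36, did not pass that filter in endometrium. The median ratio of conceptus to endometrial CPM was 26.2 for the 39 genes and 0.487 for all genes. When both tissues were scaled together, which brought the median ratio of all genes to 1.05, the median of the 39 genes was 54.9.

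The ratio ranged widely within and between roles, and the differences between roles were not tested. CDC20 and UBE2C, which target cyclins and securin for destruction at the end of mitosis, had a median ratio of 104. RRM2, the S-phase-limited small subunit of ribonucleotide reductase, had a median of 1.85 CPM in pregnant endometrium (0.88 to 3.92) and 344 CPM in conceptuses (232 to 619), a ratio of 187. TOP2A, the topoisomerase that untangles sister chromosomes, was at 3.4 CPM against 474 CPM, a ratio of 139, and MKI67, which coats mitotic chromosomes and marks cycling cells, was at 2.96 against 107 CPM, a ratio of 36.1. Kinetochore and spindle genes had a median ratio of 39.1 and mitotic kinases, cyclins and checkpoint genes 33.1. Among the genes that act before mitosis the median was 8.74 for licensing and helicase genes, 7.51 for G1/S cyclins and factors, and 3.67 for the fork clamp and nucleotide supply. MCM2, a helicase subunit, had a ratio of 7.52, PCNA, the sliding clamp of the polymerases, 5.36, and E2F1 5.12. Single genes departed from these medians: beside RRM2, the licensing factor CDC6 had a ratio of 80.8, CCNE1 36.4 and CDT1 26.2, while the mitotic cyclin CCNB1 had 3.54. CDC6 was named after its values were seen.

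The 3 genes whose tissues overlapped were PLK1, a mitotic kinase (ratio 1.69), CCNE2, a cyclin of S-phase entry (0.843), and RRM1, the large subunit of ribonucleotide reductase (0.841). In the RefSeq gene table PLK1 overlaps ERN2 and CCNE2 overlaps INTS8, so that their read assignment is uncertain. The part of ERN2 and INTS8 in these counts was not tested. With both tissues scaled together the ratios of CCNE2 and RRM1 were 1.85 and 1.83, so that their direction depends on the scaling. The subunits of ribonucleotide reductase thus had unlike ratios in the same libraries: RRM1 stood at 271 CPM in pregnant endometrium and 228 CPM in conceptuses, beside the 187-fold ratio of RRM2. FOXM1 had 0.31 CPM in pregnant endometrium and 3.08 CPM in conceptuses.

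**Figure D1:**
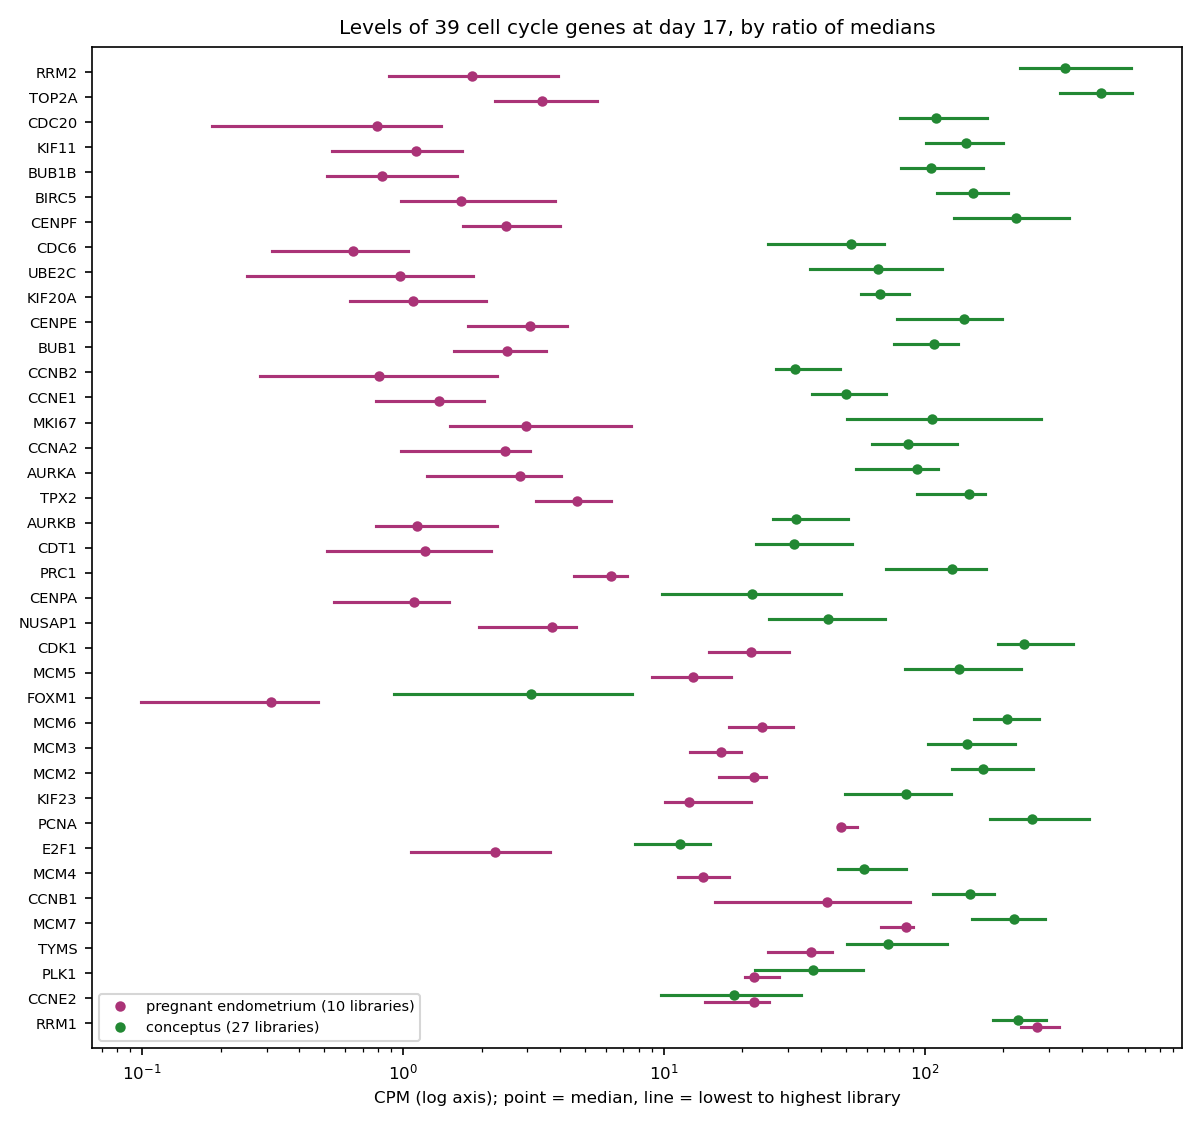
Level of each of the 39 genes in CPM (log axis) in 10 pregnant endometrial libraries (purple) and 27 conceptus libraries (green), ordered by the ratio of the medians; points are medians and lines run from the lowest to the highest library. The lines of the 2 tissues meet only for PLK1, CCNE2 and RRM1, at the bottom.

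Of the 153 other pathway genes, 101 were higher in every conceptus than in every pregnant endometrium, and 19 were lower in every conceptus. Among the genes that passed the filter on low counts in both tissues 11.9% lay wholly above and 44.0% wholly below. The 153 genes were not filtered and some did not pass in endometrium, so that the sets are not alike. Of the 36 wider genes of the spindle, cytokinesis and condensin, 35 lay above. The 8 inhibitors of cyclin-dependent kinases had a median ratio of 0.389, near the 0.487 of all genes, and 0.840 beside 1.05 when both tissues were scaled together. In 5 of them the tissues overlapped, 2 lay wholly below and 1, CDKN3, wholly above (ratio 11.2). CDKN1C (p57) overlapped with a ratio of 3.25. CDKN1B (p27) was at 144 CPM in endometrium and 27.9 CPM in conceptuses, CDKN1A (p21) at 40.1 and 7.87 CPM, and neither overlapped between the tissues. The 22 wider G1/S regulators had a median ratio of 1.35, with 8 wholly above, 5 wholly below and 9 overlapping. Among them RB1, the retinoblastoma protein that holds back E2F, was 15.1-fold lower in conceptuses (60.7 against 4.03 CPM). Its relative RBL2 was 12.4-fold lower and the D-type cyclin CCND3 11.04-fold lower. These 7 genes were named after their values were seen. When both tissues were scaled together CDKN1B, CDKN1A, RB1, RBL2 and CCND3 stayed lower in conceptuses, with ratios of 0.425, 0.415, 0.138, 0.172 and 0.195.

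Of the list, 2 genes differed between P-HF and NP-HF endometrium, both of nucleotide supply. No sampling day is given for NP-HF, so that pregnancy and day cannot be told apart. TYMS, thymidylate synthase, which makes the thymidine nucleotide for DNA, was lower in P-HF than in NP-HF, and RRM1 was higher. Genes were tested with edgeR's quasi-likelihood test on all 25 endometrial libraries, with Benjamini-Hochberg adjustment over 19606 genes, and called at an adjusted p under 0.05. In the list, 1 gene was called higher and 1 lower of 38 tested, while 20.8% of all genes tested were called, 10.2% higher and 10.6% lower. The share of the list that was called was thus below that of all genes, and its median log2 fold change was -0.11 beside -0.01 for all genes. FOXM1, between 0 and 0.63 CPM in every endometrial library, did not pass the filter on low counts.

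TYMS stood at 48.2, 55.4, 44.2, 61.6 and 45.6 CPM in the NP-HF libraries. In the P-HF libraries it was at 31.6, 32.5, 29.7, 40.3 and 35.9 CPM. Every P-HF library lay below every NP-HF library, and TYMS was the only one of the 38 genes without overlap, a separation seen in 12.1% of all genes. Its log2 fold change was -0.58 ± 0.13 (SE, 5 against 5 animals; edgeR adjusted p = 0.0024), and it was called in each of 15 alternative fits. TYMS overlaps ENOSF1 in the RefSeq gene table, and ENOSF1, given here for that reason after its values were seen, was at 31.0 ± 7.28 CPM (SD, n = 5) in NP-HF and 32.5 ± 5.10 CPM in P-HF.

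RRM1 stood at 214, 192, 211, 245 and 261 CPM in NP-HF and at 327, 315, 296, 233 and 240 CPM in P-HF. The first 3 P-HF libraries lay above all NP-HF libraries and the other 2 lay within their range. RRM1 rose by 0.33 ± 0.11 on the log2 scale (edgeR adjusted p = 0.028), and the call was lost in 7 of 15 alternative fits, where the adjusted p reached 0.097.

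The other 36 genes tested were not called in this comparison, with log2 fold changes from -0.99 to 1.61. Among the mitotic genes, the log2 fold change was -0.99 ± 0.42 for CCNB1, the cyclin of mitotic entry (adjusted p = 0.096), 0.17 ± 0.16 for its kinase CDK1, 0.25 ± 0.26 for the centrosome kinase AURKA, -0.66 ± 0.31 for TOP2A and -0.19 ± 0.37 for MKI67. CCNB1 was the most variable of these between animals, from 15.7 CPM in P-HF to 120 CPM in NP-HF, and the groups overlapped. Among replication genes, it was -0.34 ± 0.13 for the helicase subunit MCM6 (adjusted p = 0.059), -0.17 ± 0.12 for MCM2, -0.48 ± 0.38 for CDT1, which loads the helicase, 0.00 ± 0.07 for PCNA, 0.18 ± 0.39 for RRM2, 0.00 ± 0.29 for the S-phase cyclin CCNE1 and -0.34 ± 0.27 for E2F1. The B-type cyclin CCNB2, named after its values were seen, was at 0.25 to 0.71 CPM in NP-HF and 0.28 to 2.30 CPM in P-HF (1.61 ± 0.59, adjusted p = 0.053). Its counts were 6 to 15 per NP-HF library and 5 to 59 per P-HF library. DESeq2 called 4 genes of the list here: TYMS, RRM1, CCNB2 and MCM6. The share of all genes that DESeq2 called is not given here or below, so that its counts are not a result about the list.

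Summed stromal and epithelial markers differed in the same comparison. The summed level of 7 stromal markers was 12625 to 24417 CPM in NP-HF and 4892 to 8285 CPM in P-HF. That of epithelial markers was 927 to 1208 CPM in NP-HF and 1391 to 1647 CPM in P-HF, and neither sum overlapped between the groups. Immune markers summed to 90.4 to 151 and 91.5 to 141 CPM, which overlapped. Over all endometrial libraries COL1A1 ran from 286 to 2853, COL1A2 from 543 to 5330 and COL3A1 from 1142 to 11315 CPM. DCN (2342 to 3752), LUM (215 to 429), VIM (263 to 693) and PDGFRB (90.4 to 204 CPM) ranged less. The epithelial CLDN4 ran from 43.1 to 445 CPM and EPCAM from 397 to 669 CPM. A sum can thus follow a few genes and does not measure cell share. The part of these markers in the values of TYMS and RRM1 was not tested.

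Of 148 wider pathway genes tested, 13 were called higher and 7 lower in P-HF, beside 10.2% and 10.6% of all genes tested. These counts are not a result about the wider list. The smallest p belonged to CCND3, a cyclin of G1 (0.94 ± 0.14), RNASEH2A, the catalytic subunit of an RNase that removes RNA from DNA (-0.62 ± 0.11), MASTL, the kinase that protects mitotic phosphorylation (2.44 ± 0.46), and POLD3, a subunit of DNA polymerase delta (0.69 ± 0.13). CDKN1A (0.92) and the atypical repressor E2F7 (-2.04), named after their values were seen, were also called.

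In SF heifers no gene of the list was called by edgeR in P-SF against NP-SF, where 4.07% of all genes were called, 3.18% higher and 0.887% lower. An unadjusted p under 0.05 was reached by 3 genes with higher and 2 with lower levels in P-SF. Where the share of all genes is not given beside such a count, here and below, it is not a result about the list. DESeq2 called TYMS and CCNB2, and limma-voom called none. TYMS stood at 55.9, 57.0, 51.1, 43.5 and 45.8 CPM in NP-SF and at 44.3, 37.3, 41.4, 41.4 and 25.1 CPM in P-SF. A single P-SF library, at 44.3 CPM, reached into the NP-SF range. The log2 fold change was -0.42 ± 0.13 (adjusted p = 0.071). RRM1 was at 243, 216, 278, 214 and 258 CPM in NP-SF and 287, 256, 241, 253 and 285 CPM in P-SF, and the groups overlapped (0.13 ± 0.11).

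The cycling marker MKI67 was at 1.52 to 2.42 CPM in NP-SF, while P-SF held 2.82, 5.31, 2.64, 2.13 and 7.49 CPM. The second and the fifth P-SF library were well above the others (0.90 ± 0.37, adjusted p = 0.20). RRM2 had 0.90 ± 0.40, CCNE1 0.58 ± 0.30, CDK1 0.25 ± 0.16, AURKA 0.24 ± 0.26 and CDT1 0.22 ± 0.39. The log2 fold changes of TOP2A (-0.02 ± 0.32), CCNB1 (0.02 ± 0.41), MCM2 (-0.02 ± 0.12), MCM6 (-0.09 ± 0.13), PCNA (0.07 ± 0.07) and E2F1 (-0.09 ± 0.28) were smaller than their errors or near them. Of the wider genes MASTL (2.72 ± 0.48) and POLD3 (0.54 ± 0.13) were called higher and RNASEH2A (-0.45 ± 0.11) lower.

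Whether the change with pregnancy differed between the fertility classes was tested as an interaction. No gene of the list was called by edgeR, DESeq2 or limma-voom, and 0.0051% of all genes were called by edgeR. For TYMS the difference between the classes was 0.17 ± 0.18 and for RRM1 -0.20 ± 0.15, so that a difference between HF and SF heifers in either gene was not detectable with 5 animals a group. MKI67 had the only unadjusted p under 0.05 (1.10 ± 0.52, p = 0.046, adjusted p = 0.73). Of 38 genes 27 had a positive difference, with a median of 0.19 beside 0.01 for all genes. The share of all genes with a positive difference is not given. CCNB1 (1.01 ± 0.59), TOP2A (0.64 ± 0.45), RRM2 (0.72 ± 0.56), CDT1 (0.70 ± 0.54), CCNE1 (0.58 ± 0.42), E2F1 (0.25 ± 0.39), MCM6 (0.25 ± 0.18), MCM2 (0.15 ± 0.17), PCNA (0.07 ± 0.10), CDK1 (0.07 ± 0.23) and AURKA (-0.01 ± 0.37) were not called.

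**Figure D2:**
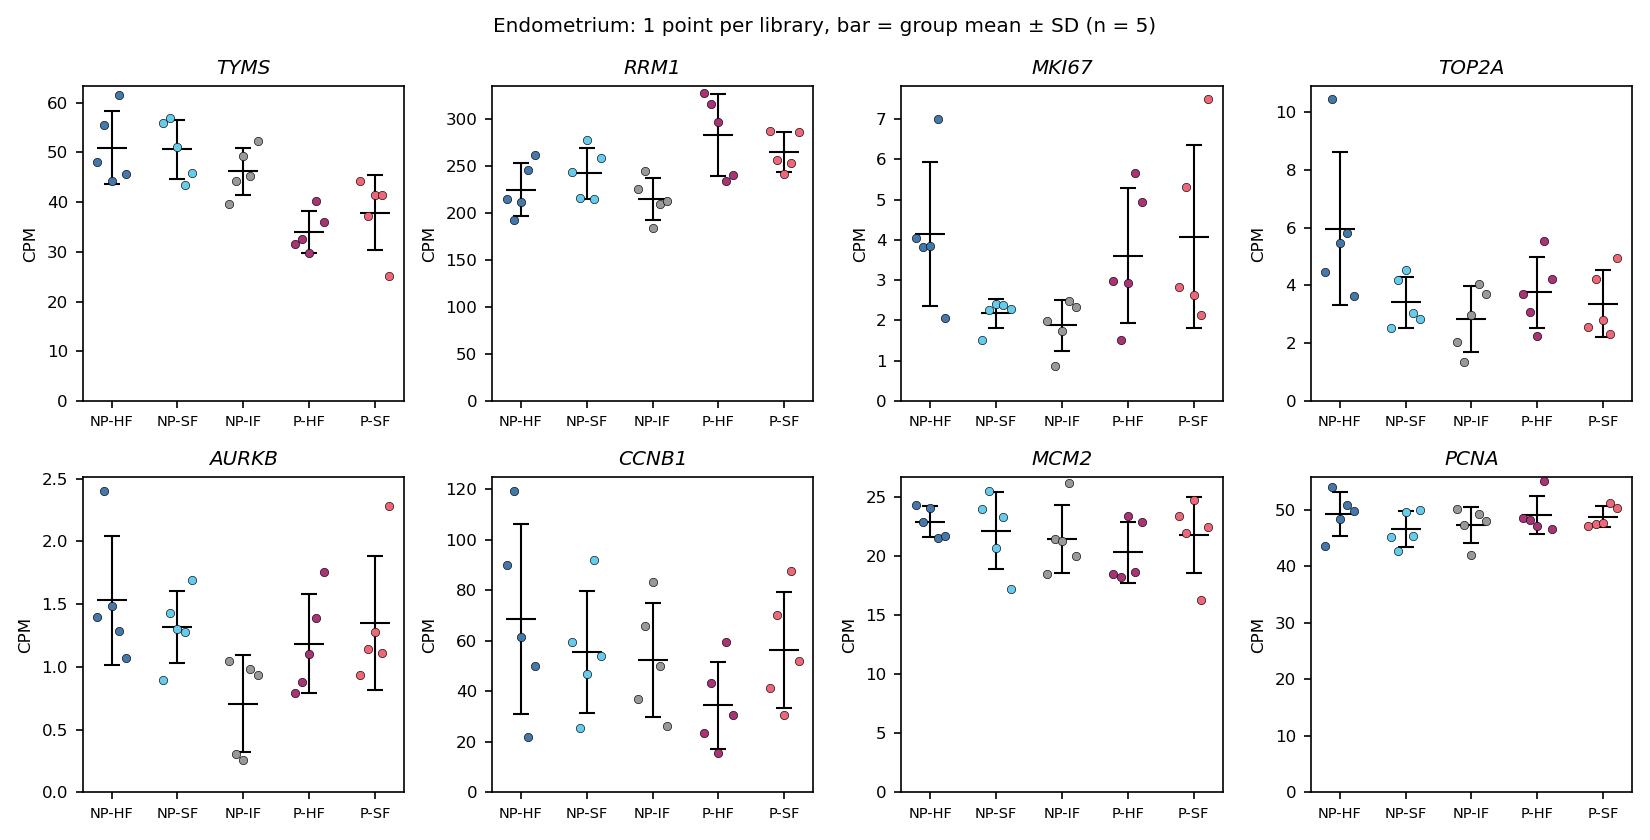
CPM of 8 genes in each of the 25 endometrial libraries (1 point per library), with the mean and SD of each group of 5; each axis starts at 0 CPM. TYMS is lower in every P-HF library than in every NP-HF library, the 2 lowest AURKB values are both NP-IF, and PCNA stays between 41.9 and 55.0 CPM in all groups.

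Between the fertility classes of non-pregnant heifers no gene was called in the list or in the whole table (0% of 19606 genes for each of the 3 comparisons), so that the values below are descriptions. Most cell cycle genes had a lower level in NP-IF than in NP-HF, none of them past the test. In NP-IF against NP-HF, 34 of 38 genes had a negative log2 fold change (89.5%, beside 51.5% of all genes) with a median of -0.28, and 11 genes lower and 1 higher had an unadjusted p under 0.05 (31.6%, beside 5.46% of all genes). DESeq2 and limma-voom called none. These counts are over genes measured in the same 10 animals, and the genes are not independent observations.

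Among these were several mitotic genes. TOP2A was at 4.45, 10.5, 5.46, 5.81 and 3.64 CPM in NP-HF, at 2.51, 4.19, 4.53, 3.03 and 2.85 CPM in NP-SF and at 2.04, 1.34, 2.99, 4.07 and 3.71 CPM in NP-IF. The NP-HF library at 10.5 CPM stood apart, and 2 of the NP-IF libraries lay above the lowest NP-HF library. The log2 fold change in NP-IF against NP-HF was -1.07 ± 0.32 (p = 0.0026, adjusted p = 0.84).

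MKI67 was at 4.04, 3.82, 3.85, 7.0 and 2.06 CPM in NP-HF and at 1.99, 0.87, 1.73, 2.47 and 2.33 CPM in NP-IF. The fifth NP-HF library lay among the NP-IF values (-1.14 ± 0.37, adjusted p = 0.90). AURKB, the kinase that corrects chromosome attachment and was named after its values were seen, was the only gene of the list without overlap: 1.40, 2.40, 1.49, 1.29 and 1.07 CPM in NP-HF and 1.04, 0.31, 0.26, 0.98 and 0.94 CPM in NP-IF (-1.10 ± 0.36, adjusted p = 0.90). The AURKB counts were 23 to 51 per NP-HF library and 6 to 27 per NP-IF library, so that the counts themselves overlapped. The lowest NP-HF and the highest NP-IF value were 1.07 and 1.04 CPM, a narrow separation at low counts. A lack of overlap was found in 0.831% of all genes in this comparison.

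By role, the median log2 fold change in NP-IF was -1.11 for the ubiquitin ligase genes CDC20 and UBE2C, -1.10 for MKI67 and TOP2A, -0.39 for mitotic kinases, cyclins and checkpoint genes and -0.22 for kinetochore and spindle genes. It was -0.17 for licensing genes, all 8 of which were negative, -0.10 for the fork and nucleotide genes and 0.02 for the G1/S genes. RRM2 had -1.17 ± 0.41 and CDT1 -0.89 ± 0.38, both with an unadjusted p under 0.05. CDK1 (-0.25 ± 0.17), AURKA (-0.27 ± 0.26), CCNB1 (-0.39 ± 0.41), CCNE1 (-0.30 ± 0.30), MCM6 (-0.20 ± 0.13), MCM2 (-0.09 ± 0.12), PCNA (-0.06 ± 0.07) and E2F1 (0.02 ± 0.27) had larger p.

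The replication gene MCM2 varied little: it was at 24.3, 22.9, 24.1, 21.5 and 21.6 CPM in NP-HF and at 18.4, 21.4, 21.2, 26.1 and 19.99 CPM in NP-IF. In NP-SF it was at 23.9, 25.5, 20.7, 23.3 and 17.2 CPM, in P-HF at 18.4, 18.2, 23.3, 18.6 and 22.9 CPM and in P-SF at 23.4, 21.9, 24.7, 16.2 and 22.5 CPM. All 5 groups overlapped. E2F1 was at 1.96 to 3.52 CPM in NP-HF, 1.7 to 3.03 in NP-SF, 2.06 to 3.38 in NP-IF, 1.07 to 3.66 in P-HF and 1.3 to 2.73 in P-SF, and no group stood apart. CENPA, the histone variant that marks the centromere, was at 0.55 to 2.40 CPM over all endometrial libraries, and its largest log2 fold change there was -0.69 ± 0.31 in P-HF against NP-HF (adjusted p = 0.12).

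In NP-SF against NP-HF, 32 of 38 genes were negative (84.2%, beside 51.2% of all genes; median -0.22). At an unadjusted p under 0.05 were 6 lower and 1 higher (18.4%, beside 3.62% of all genes), with no call by DESeq2 or limma-voom. TOP2A had -0.80 ± 0.31, MKI67 -0.93 ± 0.37, CDT1 -0.83 ± 0.38, RRM2 -0.82 ± 0.40, CCNE1 -0.59 ± 0.30, CCNB1 -0.30 ± 0.41, E2F1 -0.25 ± 0.27, AURKA -0.18 ± 0.26, MCM6 -0.10 ± 0.13, PCNA -0.08 ± 0.07, MCM2 -0.05 ± 0.12 and CDK1 0.00 ± 0.16. This comparison and the one with NP-IF share the 5 NP-HF libraries. Replicates 2 and 4 of NP-HF held the highest NP-HF value of 16 and 14 of the 39 genes. Without replicate 2 the median was -0.10 in NP-SF and -0.19 in NP-IF, and without replicate 4 it was -0.22 and -0.23. The immune markers summed highest in NP-HF replicate 4 (151 CPM) and the stromal markers in NP-HF replicate 2 (24417 CPM); their part in the list's values was not tested.

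NP-IF and NP-SF, which were set against each other without NP-HF, differed by a median of -0.13, with 28 of 38 genes negative (73.7%, beside 51.0% of all genes) and 2 lower and 1 higher at an unadjusted p under 0.05 (7.89%, beside 3.999% of all genes). No gene was called by edgeR, DESeq2 or limma-voom. CDK1 had -0.24 ± 0.17, TOP2A -0.27 ± 0.32, RRM2 -0.35 ± 0.41, MKI67 -0.20 ± 0.38, MCM6 -0.11 ± 0.13, AURKA -0.10 ± 0.26, CCNB1 -0.09 ± 0.41, CDT1 -0.06 ± 0.39, MCM2 -0.04 ± 0.12, PCNA 0.02 ± 0.07, E2F1 0.27 ± 0.27 and CCNE1 0.29 ± 0.30.

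In pregnant endometrium, P-SF against P-HF gave no call in the list or in the whole table (0%), with 1 gene lower at an unadjusted p under 0.05: BIRC5 (survivin), named after its values were seen (-0.68 ± 0.28, p = 0.026, adjusted p = 0.44). DESeq2 and limma-voom called no gene of the list. CCNB1 had 0.71 ± 0.42, MKI67 0.17 ± 0.37, MCM6 0.15 ± 0.13, MCM2 0.10 ± 0.12, CDK1 0.07 ± 0.16, E2F1 0.00 ± 0.27, PCNA -0.01 ± 0.07, CCNE1 -0.02 ± 0.30, RRM2 -0.10 ± 0.39, CDT1 -0.13 ± 0.38, TOP2A -0.16 ± 0.32 and AURKA -0.19 ± 0.26. Replicate 4 of P-HF held the highest value of its group for 21 of the 39 genes and replicate 5 of P-SF for 17, and these libraries also had the highest summed immune markers of their groups (141 and 128 CPM). Its part in the values was not tested.

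In conceptuses, 2 genes of the list differed between SF and HF long conceptuses: CENPA was lower and TYMS was higher in SF, and in both genes the groups overlapped. The fit held all 27 conceptuses in 3 groups and tested 16330 genes. The sample sheet, first or second, entered as a further term. It was inferred from the form of the descriptions and is not a named batch. In the list 1 gene was called higher and 1 lower of 39, while 8.9% of all genes were called, 3.8% higher and 5.1% lower. The median log2 fold change of the list was 0.04 beside 0.03 for all genes.

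TYMS ran from 58.8 CPM over a median of 68.9 to 83.2 CPM in the 10 HF long conceptuses, and from 73.8 over 89.2 to 121 CPM in the 10 SF conceptuses. The 7 HF short conceptuses were at 50.4 to 75.6 CPM with a median of 68.8. The SF range began within the HF ranges and went well beyond them. The means were 91.6 ± 14.7 CPM (SD) in SF, 69.5 ± 6.99 in HF long and 66.7 ± 8.47 in HF short. TYMS was higher in SF than in HF long by 0.40 ± 0.10 (log2, edgeR adjusted p = 0.016). The level of the overlapping gene ENOSF1 is not given for conceptuses, and its part in the TYMS counts was not tested. On the first sample sheet alone, with 7 SF and 10 HF long conceptuses, the TYMS difference was 0.40 ± 0.11 (adjusted p = 0.032). With log2 length as a further term, which left the 20 conceptuses with a length, it was 0.52 ± 0.13 (adjusted p = 0.20).

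CENPA ran from 18.7 over a median of 28.9 to 47.8 CPM in HF long, from 9.84 over 19.9 to 35.8 CPM in SF and from 15.9 over 27.2 to 38.9 CPM in HF short conceptuses. The groups overlapped. Its log2 fold change in SF against HF long was -0.80 ± 0.17 (edgeR adjusted p = 0.0095). The level of CENPA moved with the sample sheet: SF medians were 16.8 CPM in 7 libraries of the first sheet and 27.7 CPM in 3 of the second, and HF short medians were 16.1 CPM in 3 and 37.2 CPM in 4. No HF long conceptus was on the second sheet. Without the sheet in the model the value was -0.51 ± 0.21 (adjusted p = 0.13), on the first sheet alone -0.77 ± 0.19 (adjusted p = 0.023), and with log2 length added -0.61 ± 0.21 (adjusted p = 0.29). All but 1 of the second-sheet conceptuses with a length were shorter than 3 cm, so that sheet and small size largely cannot be told apart.

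**Figure D3:**
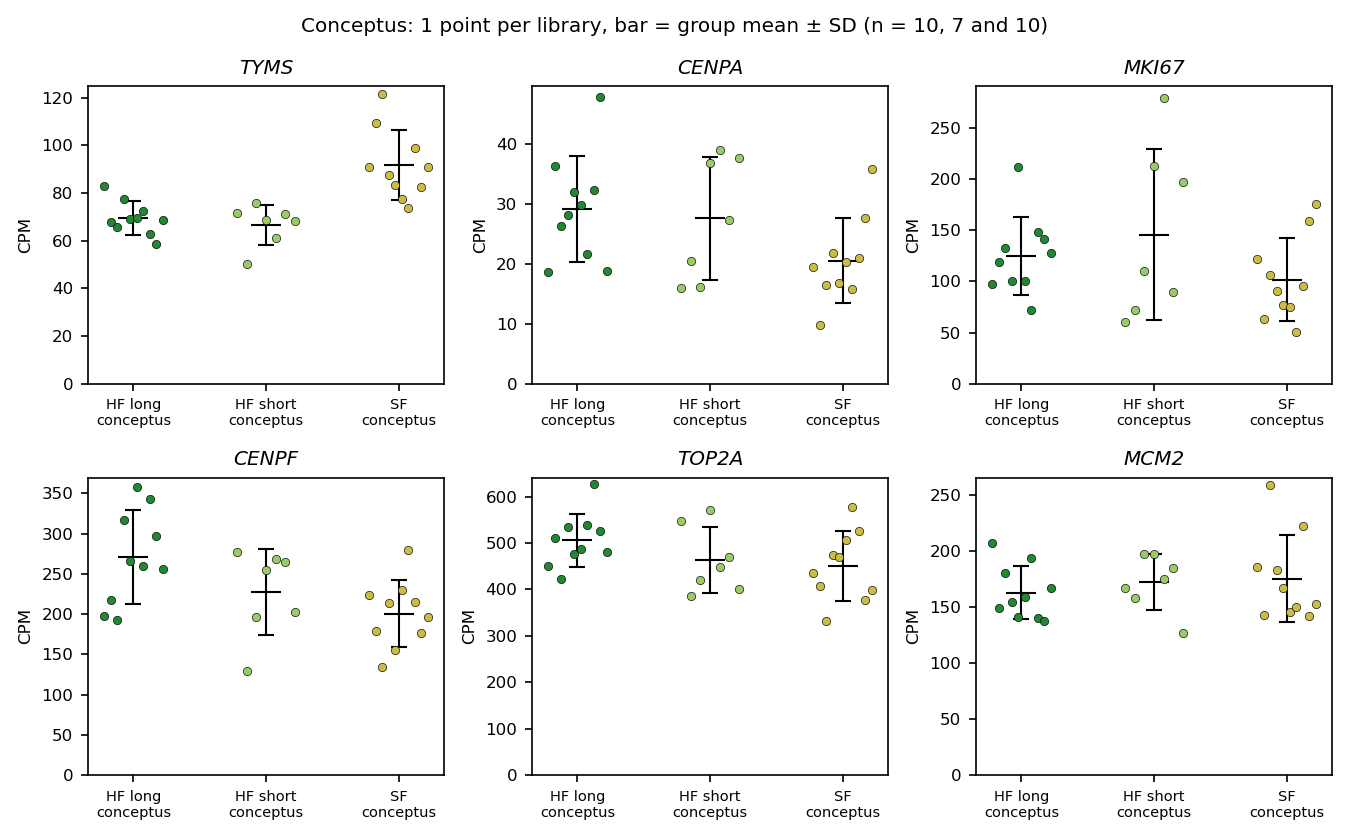
CPM of 6 genes in each of the 27 conceptuses (1 point per library), with the mean and SD of the 10 HF long, 7 HF short and 10 SF conceptuses; each axis starts at 0 CPM. TYMS reaches 121 CPM in SF and not above 83.2 CPM in the HF groups, while the groups overlap widely for TOP2A and MCM2.

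By role, the signs in SF against HF long conceptuses are counts beside 47.4% of all genes with a negative value, and differences between roles were not tested. All 8 licensing and helicase genes had positive log2 fold changes (median 0.13), as had all 4 fork and nucleotide genes (median 0.23), and 1 of these 12, TYMS, was called. Of 10 kinetochore and spindle genes 8 were negative (median -0.10), and 1, CENPA, was called. Without the sheet in the model 6 of the 8 licensing genes, 3 of the 4 fork and nucleotide genes and 2 of the 10 kinetochore and spindle genes were positive, and on the first sheet alone 8, 4 and 4. PCNA had 0.34 ± 0.15, CDT1 0.29 ± 0.13, MCM6 0.18 ± 0.10, MCM2 0.11 ± 0.12 and RRM2 0.12 ± 0.13. On the mitotic side MKI67 had -0.65 ± 0.21 (adjusted p = 0.054) and TOP2A -0.16 ± 0.11, while CDK1 had 0.29 ± 0.12 and CCNB1 0.13 ± 0.10. AURKA had -0.02 ± 0.12, CCNE1 -0.07 ± 0.11, FOXM1 -0.54 ± 0.27 and E2F1 -0.32 ± 0.12. CENPF, a kinetochore protein named after its values were seen, had -0.46 ± 0.15 (adjusted p = 0.054), and DESeq2 called it and MKI67 beside TYMS and CENPA.

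MKI67 was at 72.2 to 212 CPM in HF long conceptuses (median 124), at 60.1 to 280 CPM in HF short (median 110) and at 50.2 to 176 CPM in SF (median 93.0). E2F1 was at 10.5 to 13.6 CPM (median 11.97), 8.11 to 15.03 CPM (median 12.7) and 7.76 to 13.8 CPM (median 10.1) in the same order. TOP2A was at 423 to 627 CPM (median 499), 386 to 571 CPM (median 449) and 331 to 578 CPM (median 453). All 3 genes overlapped between all groups. MCM2 was at 138 to 208 CPM (median 157), 127 to 198 CPM (median 175) and 142 to 259 CPM (median 160), and RRM1 at 195 to 260 CPM (median 231), 187 to 264 CPM (median 208) and 183 to 291 CPM (median 231). For these as well the ranges of the groups lay over each other.

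Of 152 wider pathway genes tested, 4 were called higher and 8 lower in SF than in HF long conceptuses, beside 3.8% and 5.1% of all genes tested. These counts are not a result about the wider list. The smallest p belonged to E2F3, an activator of S-phase genes (-0.69 ± 0.14), SPAG5, a spindle protein (-0.59 ± 0.14), POLE2, a subunit of DNA polymerase epsilon (0.54 ± 0.14), and STIL, a centriole protein (-0.49 ± 0.13). Of 14 wider genes of mitotic entry and exit 10 were negative (median -0.23), and of 20 of the kinetochore and checkpoint 16 were positive (median 0.18). The wider kinetochore genes thus did not have the sign of the 10 kinetochore and spindle genes of the list.

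Against HF short conceptuses the SF conceptuses gave no call in the list by edgeR, and 0.00612% of all genes were called. TYMS was the nearest, with 0.46 ± 0.11 (adjusted p = 0.085), about as large as against the long conceptuses, and DESeq2 called it. CENPA had -0.16 ± 0.18 and MKI67 -0.17 ± 0.24. An unadjusted p under 0.05 was reached by 1 gene with a higher and 1 with a lower level. The other named genes lay between -0.14 ± 0.14 (RRM2) and 0.15 ± 0.15 (CDT1): CCNE1 -0.12 ± 0.12, E2F1 -0.11 ± 0.13, FOXM1 -0.08 ± 0.32, TOP2A -0.04 ± 0.12, MCM2 0.02 ± 0.13, MCM6 0.05 ± 0.11, CDK1 0.06 ± 0.13, CCNB1 0.06 ± 0.10, AURKA 0.06 ± 0.13 and PCNA 0.12 ± 0.16.

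Within HF recipients, short against long conceptuses gave no call in the list or in the whole table (0%) by edgeR, with 2 genes lower at an unadjusted p under 0.05, and DESeq2 and limma-voom called none of the list. CENPA had -0.64 ± 0.21 (p = 0.0051, adjusted p = 0.93), MKI67 -0.48 ± 0.27, FOXM1 -0.46 ± 0.37, E2F1 -0.21 ± 0.15, TOP2A -0.12 ± 0.13 and AURKA -0.08 ± 0.14. RRM2 had 0.26 ± 0.15, CDK1 0.23 ± 0.15, PCNA 0.21 ± 0.17, CDT1 0.14 ± 0.16, MCM6 0.13 ± 0.12, MCM2 0.10 ± 0.15, CCNB1 0.08 ± 0.12, CCNE1 0.06 ± 0.13 and TYMS -0.06 ± 0.12. Without the sheet in the model CENPA had -0.08 ± 0.23, MKI67 0.22 ± 0.28 and FOXM1 0.35 ± 0.34, the last 2 with the other sign. The comparisons of SF and of HF short conceptuses with HF long ones share the 10 HF long libraries.

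In 4 HF recipients 1 long and 1 short conceptus came from the same animal, by the recipient number in the titles. TOP2A was at 423, 534, 627 and 482 CPM in the long conceptus (9 to 17 cm) and at 386, 421, 470 and 400 CPM in the short conceptus of the same recipient (1.3 to 6.9 cm), in the same order of recipients. The short conceptus was the lower in each pair. RRM2 was at 286, 305, 268 and 315 CPM in the long and 320, 344, 356 and 331 CPM in the short conceptus, the higher value in each pair. Of the 39 genes, 5 were lower in the short conceptus of all 4 pairs (TOP2A, and BUB1B, CENPF, KIF11 and TPX2, named after their values were seen) and 2 were higher (RRM2 and BIRC5). These are 12.8% and 5.13% of the list, beside 4.63% and 6.10% of the 16330 genes tested in conceptuses; BIRC5 was also named after its values were seen. In 2 of the 4 pairs, the third and the fourth, the short conceptus was on the second sample sheet and the long one on the first, so that size and sheet cannot be told apart there. With recipient as a block in the fit no gene of the list was called.

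Length was given in the titles of 20 conceptuses, from 1.2 to 17 cm. No gene of the list or of the whole table (0% of 16142) was called for a slope on log2 length by edgeR, with the sheet in the fit, and DESeq2 and limma-voom called none of the list. Slopes with an unadjusted p under 0.05 were positive for 4 genes and negative for 1 (12.8% of the list, beside 11.4% of all genes). The log2 change per doubling of length was 0.20 ± 0.07 for E2F1 (p = 0.012, adjusted p = 0.34), 0.14 ± 0.07 for AURKA, -0.16 ± 0.07 for CDK1, 0.16 ± 0.14 for MKI67 and 0.12 ± 0.07 for MCM2. It was -0.10 ± 0.07 for RRM2, 0.10 ± 0.09 for CDT1, -0.06 ± 0.06 for MCM6, 0.05 ± 0.06 for CCNB1, -0.06 ± 0.09 for PCNA, 0.04 ± 0.17 for FOXM1, 0.02 ± 0.07 for TOP2A and -0.01 ± 0.06 for CCNE1. For the genes called elsewhere it was 0.10 ± 0.08 for TYMS and 0.07 ± 0.10 for CENPA. Without the sheet in the fit the slope was 0.01 ± 0.06 for E2F1, -0.20 ± 0.09 for MKI67 and -0.24 ± 0.10 for FOXM1, so that for the last 2 the direction depends on that term.

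MKI67 was at 50.2 to 280 CPM (median 176) in the 7 conceptuses under 3 cm, at 71.6 to 122 CPM (median 90.6) in the 7 of 3 to 7 cm and at 97.6 to 149 CPM (median 118) in the 6 over 7 cm. The smallest conceptuses held both the lowest and the highest value. The lowest, at 2 cm, was an SF conceptus of the first sheet. AURKA had medians of 65.7, 91.9 and 94.0 CPM and TOP2A of 449, 470 and 466.4 CPM in the same order.

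**Figure D4:**
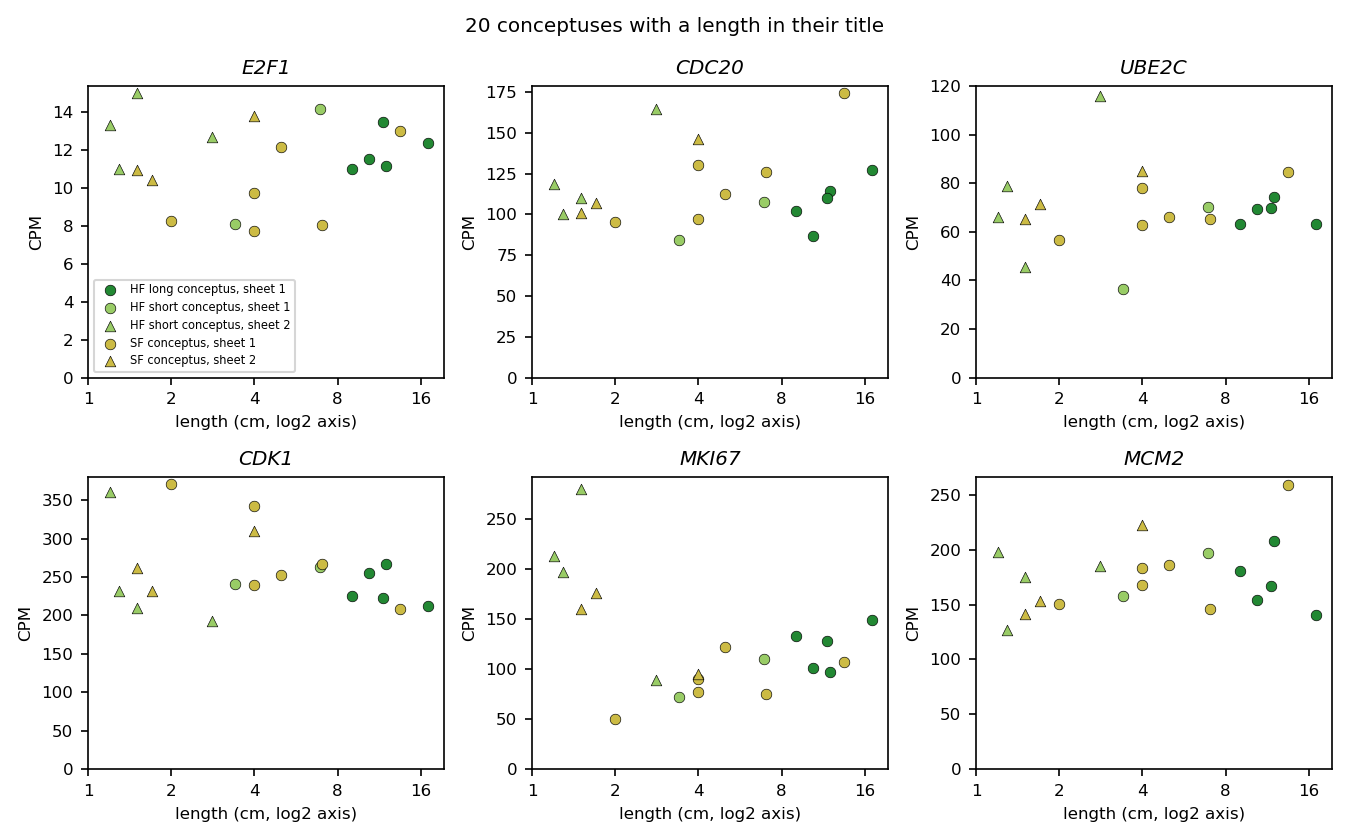
CPM of 6 genes against conceptus length in cm (log2 axis) for the 20 conceptuses with a length, by group (colour) and sample sheet (circles for the first, triangles for the second). All but 1 of the second-sheet conceptuses are under 3 cm, MKI67 runs from 50.2 to 280 CPM below 3 cm, and no slope passed the threshold.

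**Figure D5:**
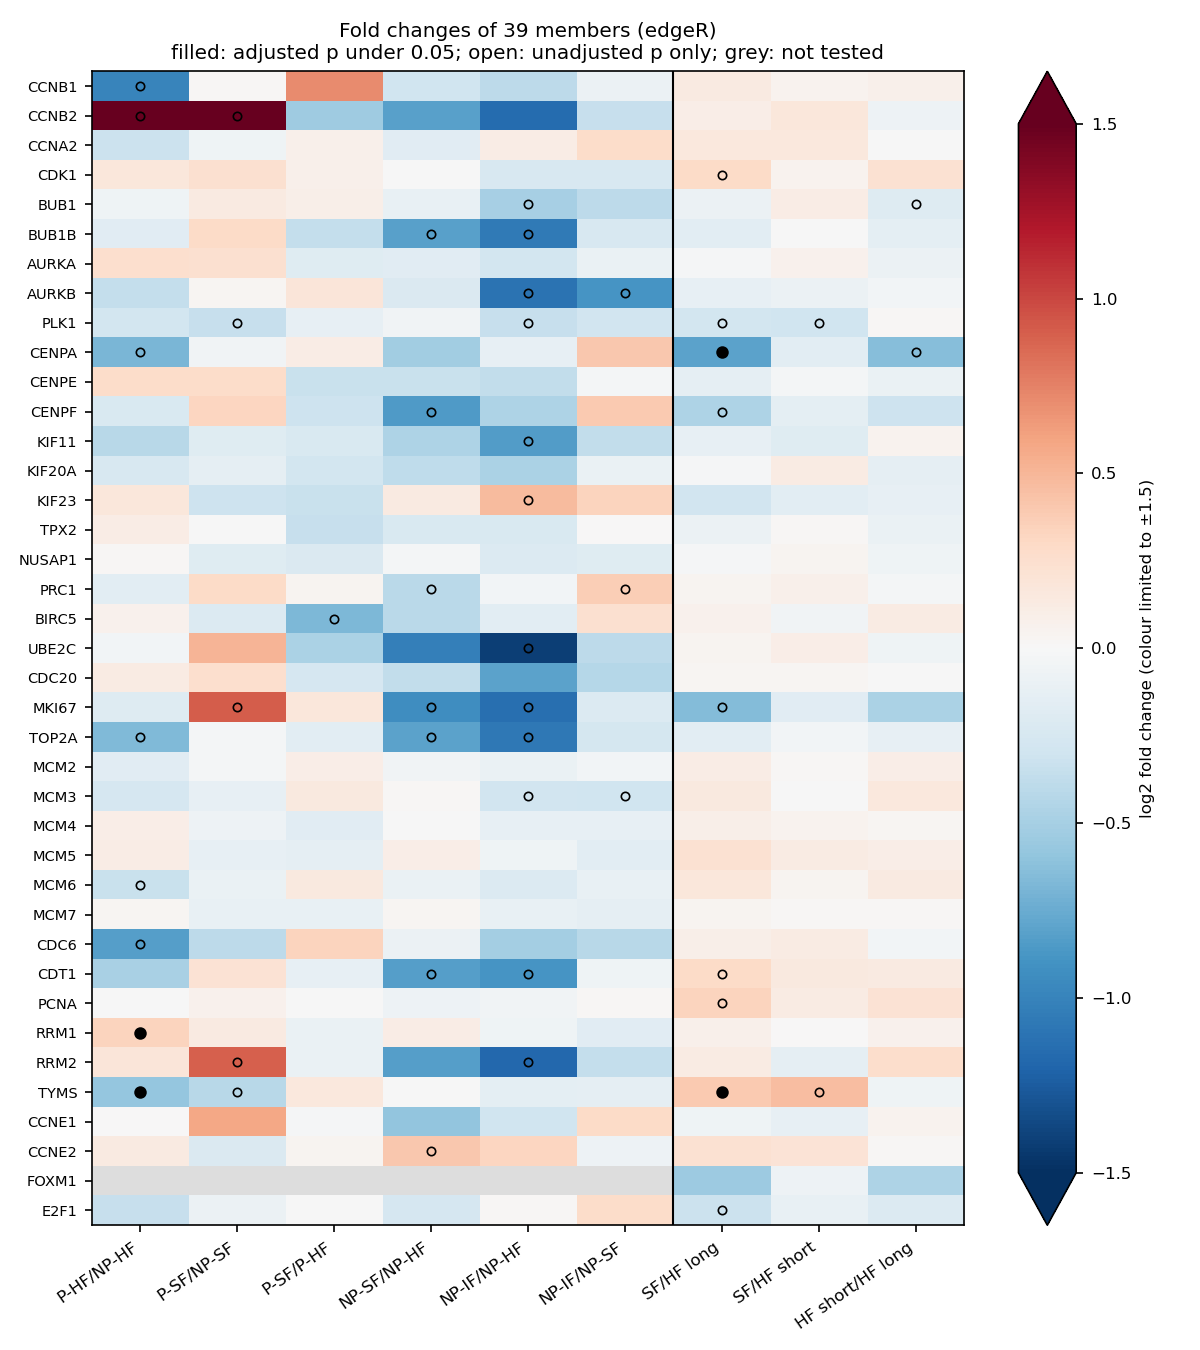
Log2 fold changes of the 39 genes (rows, by role) in 6 endometrial and 3 conceptus comparisons (columns), with the colour limited to ±1.5; filled circles are genes called at an adjusted p under 0.05, open circles have an unadjusted p under 0.05 only, and FOXM1 was not tested in endometrium. Filled circles mark TYMS in 2 comparisons, RRM1 in 1 and CENPA in 1, and the NP-IF against NP-HF column is mostly negative.

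Over the 11 comparisons TYMS was thus the gene called in both tissues. It was lower in pregnant than in non-pregnant HF endometrium and higher in SF than in HF long conceptuses. As a summary per library, the mean log2(CPM + 1) of the 39 genes was 2.68 to 3.01 in NP-HF, 2.60 to 2.70 in NP-SF, 2.49 to 2.76 in NP-IF, 2.62 to 3.002 in P-HF and 2.61 to 2.86 in P-SF. In conceptuses it was 6.38 to 6.55 in HF long, 6.16 to 6.67 in HF short and 6.21 to 6.62 in SF. The endometrial groups overlapped with each other, as did the conceptus groups.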

How the data were processed

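RNA was sequenced from 25 endometrial and 27 conceptus libraries, made with a TruSeq stranded mRNA kit per the labels' protocols. The authors deposited unnormalized read counts, 1 whole number per gene and library, and per the submitters' processing notes the tools were HISAT2, StringTie and edgeR and the build UMD3.1; the sources used here give neither their versions nor the strand setting. Gene names were checked against RefSeq's table of another assembly, ARS-UCD2.0, so no coordinates or sequences are given. In that assembly 8 of the 39 genes overlap another protein-coding gene (CCNA2, PLK1, KIF20A, KIF23, NUSAP1, CDT1, TYMS and CCNE2), and their read assignment is uncertain. The table's 1020 blank lines were left out.

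Columns were matched to samples by title. In 20 conceptus samples the description names another animal than the title, and samples were named by title. For all 8 recipients with an endometrial library the class by title matched the endometrial label. The class by description matched for 7 of them, so that this check hardly tells titles and descriptions apart. It does not test the lengths or the pairs. The sample sheet was inferred from the form of the descriptions, matched by animal and length, and is not a named batch.

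From the counts, genes with low values were removed (filterByExpr, minimum count 10, minimum total count 15), libraries were scaled by TMM, and edgeR's quasi-likelihood test was run with Benjamini-Hochberg adjustment over all genes tested. Errors after ± are standard errors of log2 fold changes unless SD is written. The versions used were edgeR 4.0.16, DESeq2 1.42.0 and limma 3.58.1 under R 4.3.3. The fits were tested on simulated data. Alternatives were other scaling, no low-count filter, DESeq2, limma-voom, only the groups compared, the sheet and length terms, recipient as a block, and each library left out.

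The genes of the list, the wider list and the tests were chosen with earlier results of these data known. The rule for named genes took each gene called, 13 genes named whatever their result (MKI67, TOP2A, CDK1, CCNB1, AURKA, MCM2, MCM6, PCNA, RRM2, CCNE1, CDT1, FOXM1 and E2F1), and per comparison up to 4 wider genes with the smallest p; others are marked where they are named. Of the 155 wider genes written, 153 were found. Long and short conceptuses pair by the recipient number in the titles: in 4 recipients the correlations of the deviations from the group means were 0.73, 0.45, 0.53 and -0.08.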

Additional observations from a re-analysis of the deposited data

Results flagged for a closer look

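Of 136 sets of library values in groups of 4 to 10 samples, 6 had a library far from the others (4.41%; chance gives about 1 in 20). MKI67 was low in NP-SF replicate 1, at 1.52 CPM where the other NP-SF libraries had 2.25 to 2.42. CCNE1 was low in NP-SF replicate 5, at 0.435 CPM beside 0.896 to 1.11. AURKA was low in P-HF replicate 1, at 1.24 CPM beside 3.08 to 4.05, and high in P-SF replicate 5, at 3.65 CPM beside 2.24 to 2.55. PCNA was high in P-HF replicate 4, at 55.0 CPM beside 46.6 to 48.4. MCM2 was low in P-SF replicate 4, at 16.2 CPM beside 21.9 to 24.7. None of these genes was called by edgeR in a comparison of the endometrium.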

How the results depend on the processing

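DESeq2 called 4 genes of the list in P-HF against NP-HF (edgeR 2) and 2 in P-SF against NP-SF (edgeR 0). It called 4 in SF against HF long conceptuses (edgeR 2) and 1 in SF against HF short conceptuses (edgeR 0). The shares of all genes called by DESeq2 and by the alternative fits below are not given beside these counts. The counts are thus not a result about the list. In SF against HF long conceptuses 1 gene was called without the sheet term and 0 with log2 length as a further term, a fit with fewer samples. With each library left out in turn the counts ran from 1 to 3 in P-HF against NP-HF, 0 to 1 in P-SF against NP-SF, 2 to 4 in SF against HF long and 0 to 1 in SF against HF short conceptuses, and stayed at 0 in the other 7 comparisons. Without NP-HF replicate 1, or without P-HF replicate 3, TYMS alone was called in P-HF against NP-HF; without NP-SF replicate 3 CCNB2 was called in P-SF against NP-SF; without C-HF-long replicate 1 there were 4 calls in conceptuses, and without C-SF replicate 7 TYMS was called against HF short. The cause was not tested. RRM1 lost its call in 7 of 15 fits, in 6 of them with 1 library of either group left out and in 1 with only the groups compared (adjusted p = 0.060 to 0.097). CENPA kept its call in 26 of 28 fits and TYMS in conceptuses in 27 of 28. No called value changed sign. Of 3058 values of named genes under alternatives 159 had the other sign, 22 of them by at least 1 SE; in short against long conceptuses MKI67 went from -0.48 to 0.22 and FOXM1 from -0.46 to 0.35 without the sheet term, and CDK1 from 0.23 to -0.17 with log2 length as a further term. With recipient as a random replicate block (limma-voom), 2 genes were called in SF against HF long conceptuses and 0 in the other 3 conceptus fits, and with the 4 recipients that gave both as a fixed block 0 were called in short against long. No paired analysis was possible in endometrium because the labels give no pairing between the animals of different groups. The precision is set by 5 animals a group in endometrium and by low counts of mitotic genes there, such as 0 to 59 for CCNB2.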
